A study of Mus musculus with 6 samples.

Results

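Deubiquitinases are proteases that cut ubiquitin from other proteins or from ubiquitin chains, and 8 of their genes were examined in irradiated mouse intestine: Usp5, Usp14, Uchl1, Uchl3, Uchl5, Otub1, Cyld and Tnfaip3. They were chosen by name, as enzymes that release, recycle or edit ubiquitin, by a rule that uses no measured value, although the set was drawn up with earlier results of these data known. On the arrays 17 of 45281 probes carried one of these symbols, and the 8 genes were among 19057 genes with a named probe. Each gene was read by the brightest of its probes on average, with its other probes beside it. The study gave free ubiquitin (free Ub), the unconjugated protein, to irradiated mice, and these arrays compare that treatment with phosphate-buffered saline (PBS).

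The free Ub group held 3 male C57 mice irradiated over the whole body with 7 Gy and then given free Ub, and the PBS group held 3 such mice given PBS after the same dose. The labels give an age of 4 weeks and place tissue collection at 3.5 days, whereas the study's text differs from them on the age, the time and whether injection came before or after radiation. All 6 mice were irradiated, so no value here compares irradiated with unirradiated intestine. RNA came from bulk intestine with 1 array per mouse, an Illumina MouseWG-6 v2 BeadChip carrying DNA probes that bind labelled RNA. Values are log2 signals, with the base inferred from their range, and between 32.2% and 33.7% of the probes of an array lay at its floor, within 0.01 of its lowest value.

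Ubiquitin is made as fusions and head-to-tail repeats, so free monomers arise only when a protease cuts them out or takes them back from a conjugate. Usp5 disassembles unanchored chains, Usp14 and Uchl5 act at the proteasome, and the ubiquitin carboxy-terminal hydrolases Uchl1 and Uchl3 cleave small adducts from the end of ubiquitin. Otub1 trims the chains that mark proteins for the proteasome and also restrains conjugating enzymes. Cyld and A20, the product of Tnfaip3, remove or edit chains in tumor necrosis factor and NF-κB signaling, and both limit that pathway. In the gut, A20 is known to protect epithelium from cytokine-driven cell death.

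Because Tnfaip3 is a classical NF-κB target, the stretch before the start of each gene was searched for NF-κB sites. RefSeq sequence (GRCm38.p6) was at hand for 6 of the 8 genes, all but Usp5 and Usp14, and Tnfaip3 had 2 annotated starts. In the 250 bases before the start, the NF-κB consensus occurred at Cyld and at the first Tnfaip3 start, and at no start of Uchl1, Uchl3, Uchl5 or Otub1, nor at the second Tnfaip3 start. Among 32851 promoters of the same length 9.55% held it. The interferon-type motif GAAANNGAAA, searched because interferon regulatory factors bind such repeats, was in none of these windows and in 2.98% of all promoters. Both strands were searched, and neither motif overlapped the other here. A match describes letters and is no measurement of binding. The 160 bases before each start with a match are shown 5′ to 3′ on the strand of the gene, with the matches in capitals.
Tnfaip3, chr10:19015411-19015570, minus strand: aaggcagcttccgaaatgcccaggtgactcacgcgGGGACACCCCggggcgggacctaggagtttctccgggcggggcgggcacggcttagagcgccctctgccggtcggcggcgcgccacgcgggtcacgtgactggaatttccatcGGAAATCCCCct
Cyld, chr8:88696868-88697027, plus strand: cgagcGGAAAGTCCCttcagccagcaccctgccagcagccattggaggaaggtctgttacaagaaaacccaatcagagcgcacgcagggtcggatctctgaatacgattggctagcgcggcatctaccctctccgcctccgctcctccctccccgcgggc
At Tnfaip3 the 2 matches lie 125 to 116 and 12 to 3 bases before the start, and at Cyld the single match lies 155 to 146 bases before it.

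None of the 8 genes passed an adjusted p under 0.05 in limma, a linear model fitted to every probe with Benjamini-Hochberg adjustment over all 45281. Over all named genes 0.0577% passed. Tnfaip3 was the only one of the 8 whose free Ub and PBS values did not overlap, and the only one at an unadjusted p under 0.05, both times lower with free Ub. Over all named genes 3.4% passed that unadjusted p with lower values and 2.34% with higher ones. Among the 11923 genes above the floor on all 6 arrays, 6.27% had all free Ub values below all PBS values and 4.45% had them above. All 8 genes were above the floor on all 6 arrays. In group means 1 was higher with free Ub (Otub1) and 7 were lower, with a median difference of -0.09 log2. Of all 19057 named genes 8443 averaged higher, 9474 lower and 1140 were at the floor on all 6 arrays. All named genes had a median of -0.002, or -0.03 for those above the floor.

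**Figure D1:**
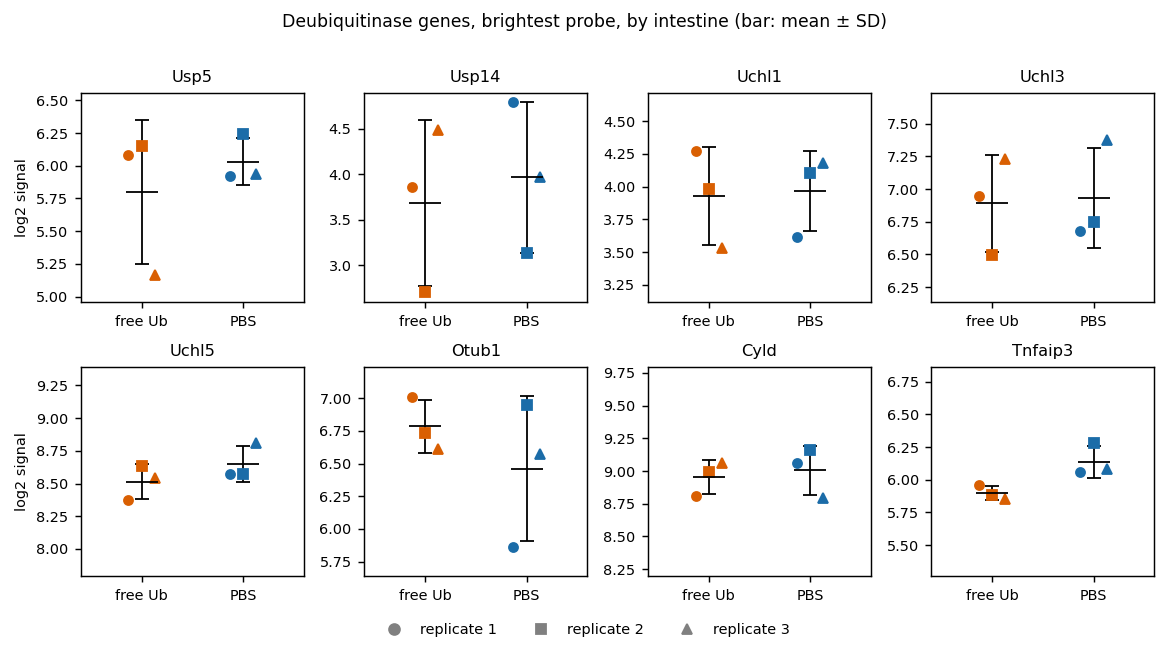
Normalized log2 signal of the brightest probe of each gene in every intestine, free Ub on the left and PBS on the right of each panel; points are mice, bars are the mean and SD (n = 3 each), and each panel has its own vertical scale. The groups overlap in 7 panels, and in Tnfaip3 the 3 free Ub values (5.86 to 5.96) lie below the 3 PBS values (6.06 to 6.28).

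With 3 mice in each group, the precision depended on the brightness of the probe. The median SD within groups was 0.84 log2 for probes with means of 2 to 4, 0.34 for 4 to 6, 0.23 for 6 to 8 and 0.18 above 8. For 5 of the 8 genes (Uchl1, Uchl3, Uchl5, Cyld and Tnfaip3) the 95% interval of the difference excluded a change of 2-fold in either direction. For the other 3 genes, Usp5, Usp14 and Otub1, it did not. The Uchl1 probe was dim, with a mean of 3.95 log2 over the 6 arrays, close to the 3.82 of Usp14. An exact permutation test of 3 against 3 cannot give a p below 0.1.

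Usp5 is the main enzyme that takes apart unanchored ubiquitin chains. Its log2 signals were 6.09, 6.15 and 5.17 in free Ub intestines and 5.92, 6.24 and 5.93 in PBS intestines. A single mouse, free Ub replicate 3, lay 0.75 log2 or more below the other 5 arrays, which were close together. The means were 5.80 ± 0.55 with free Ub and 6.03 ± 0.18 with PBS (SD, n = 3 each), a difference of -0.23 log2 (95% interval -1.06 to 0.60, limma adjusted p = 0.958). Without that mouse the difference was 0.085 log2. The same array had the lowest pancreatic acinar signal of the 6, with a median log2 signal of 6.68 over 7 acinar markers, against 11.9 and 13.9 in the other free Ub intestines and 9.91 to 14.1 in PBS intestines. The part of that tissue in the Usp5 value was not tested, and in bulk tissue fewer cells of a type and less RNA per cell cannot be told apart.

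Usp13, the closest relative of Usp5, read 3.25, 3.17 and 0.17 in free Ub intestines and 3.17, 3.42 and 2.83 in PBS intestines. Here too free Ub replicate 3 was the low array, and without it the difference of -0.94 log2 became 0.071. Its probe was dim, and its limma adjusted p was 0.883.

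Usp14 trims ubiquitin from substrates docked on the proteasome. Its brightest probe gave 3.86, 2.70 and 4.49 log2 in free Ub intestines and 4.79, 3.14 and 3.97 in PBS intestines. Both groups spread over more than 1.5 log2 and overlapped over most of their range. The difference was -0.28 log2 with a 95% interval of -2.05 to 1.49 (limma adjusted p = 0.979), so neither a doubling nor a halving was detectable from this probe. The 2 other Usp14 probes were at the floor on 5 of 6 arrays each. The exceptions read 1.31 log2 in free Ub replicate 2 and 0.64 log2 in PBS replicate 3.

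Uchl5 is the other hydrolase of the proteasome and also belongs to the INO80 chromatin remodeling complex. It had 4 probes, all designed on the same RefSeq transcript and all above the floor on every array. The brightest gave 8.37, 8.63 and 8.54 log2 in free Ub intestines and 8.57, 8.57 and 8.81 in PBS intestines. The groups overlapped, and the difference of -0.14 log2 had an interval of -0.41 to 0.14 (limma adjusted p = 0.872).

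The remaining Uchl5 probes did not share that sign. Probe 2 read 7.58, 7.59 and 7.59 log2 in free Ub intestines and 7.13, 7.22 and 7.64 in PBS intestines, a difference of 0.26. Probe 3 read 6.80, 6.98 and 6.79 in free Ub intestines and 7.04, 6.51 and 6.92 in PBS intestines, a difference of 0.03. Probe 4 read 6.77, 6.66 and 6.64 in free Ub intestines and 6.31, 6.64 and 6.64 in PBS intestines, a difference of 0.16 with the lowest free Ub value just above the highest PBS value. Thus 1 probe averaged lower and 3 averaged higher with free Ub, and the mean of the 4 gave 0.080 log2. Pairwise correlations of these probes over the 6 arrays ran from -0.48 to 0.73, which is a description of 6 shared arrays.

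**Figure D2:**
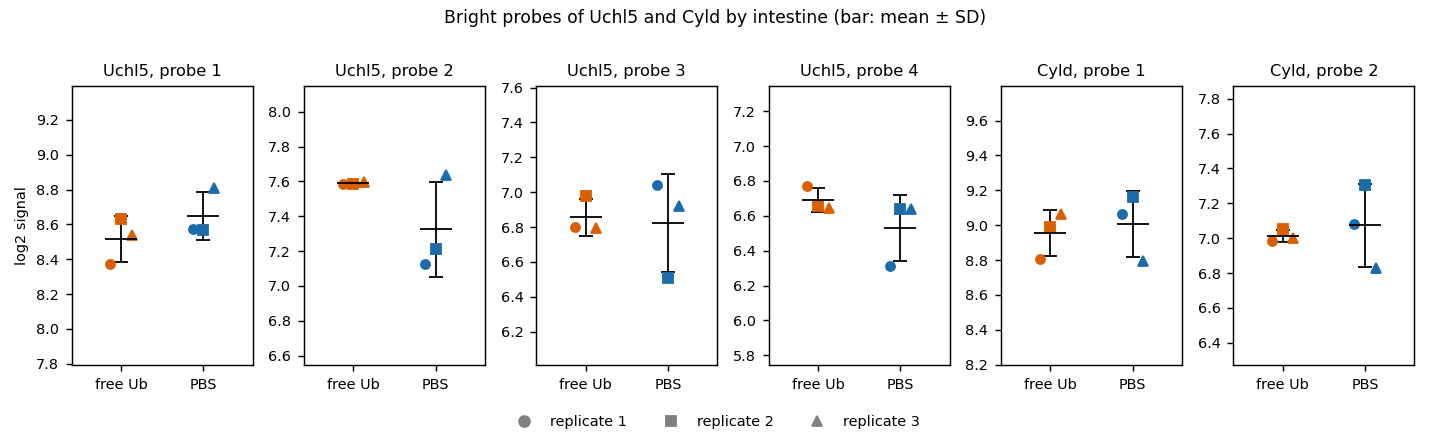
Log2 signal of the 4 Uchl5 probes and of the 2 bright Cyld probes by intestine, free Ub on the left of each panel, with mean and SD (n = 3 each) and a separate scale per panel. The Uchl5 probes order the 6 mice differently, with differences of -0.14, 0.26, 0.03 and 0.16 log2, whereas the 2 Cyld probes differ by -0.05 and -0.06.

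Proteins that work beside Usp14 and Uchl5 were counted from a list of proteasome and INO80 partners. Of 13 listed genes 11 had a probe, 3 averaged higher and 8 lower with free Ub, the median difference was -0.07 log2, and 0 passed an unadjusted or adjusted p under 0.05. Psmd14, the metalloprotease of the proteasome lid, read 7.69, 7.66 and 7.87 log2 in free Ub intestines and 8.02, 7.42 and 7.46 in PBS intestines. The groups overlapped, with a difference of 0.11 log2. Among partners above the floor on all 6 arrays, the 4 with the smallest p were Ruvbl1, an ATPase of INO80 (-0.23), Rad23b, a shuttle for ubiquitylated proteins (-0.16), Psmd1, a scaffold subunit of the proteasome base (0.08), and Ubqln1, another shuttle (-0.13), all on the log2 scale of their brightest probe and all with overlapping groups. All 4 signs turned when a gene's probes were averaged, which gave 0.74 for Ruvbl1, 0.050 for Rad23b, -0.23 for Psmd1 and 0.42 for Ubqln1. That average weighs dim and bright probes alike. Probe 3 of Ruvbl1, at the floor on 2 PBS arrays, gave 2.75, whereas its probe 2 gave -0.30. The dimmer probes gave -0.004, 0.17 and 0.20 for Rad23b and 0.69, 0.15 and 0.96 for Ubqln1. Adrm1, the receptor that binds Uchl5, carried no named probe and was not analysed here.

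Uchl1 is a hydrolase that is abundant in neurons, including those of the gut wall. Its log2 signals were 4.28, 3.98 and 3.53 in free Ub intestines and 3.62, 4.11 and 4.18 in PBS intestines. Both groups spanned nearly the same range, and the difference was -0.04 log2 (95% interval -0.74 to 0.66, limma adjusted p = 0.979). Of 18 enteric neuron markers with a probe, 7 averaged higher and 10 lower with free Ub, and Tubb3 was at the floor on all 6 arrays. Their summed linear signal was 261 to 438 in free Ub intestines and 324 to 480 in PBS intestines. The sums overlapped, and 4 more of these markers, Elavl3, Nefm, Gap43 and Hand2, were at the floor on at least 1 array. Snap25, a synaptic vesicle fusion protein, differed by 0.65 log2 and Prph, a neuronal intermediate filament, by -0.34, both with overlapping groups. A second Prph probe, at the floor on 1 array, gave 0.31.

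Uchl3, the more widely expressed relative of Uchl1, gave 6.94, 6.50 and 7.23 log2 in free Ub intestines and 6.68, 6.75 and 7.37 in PBS intestines. Replicate 3 was the highest in each group, and the groups overlapped almost wholly. The difference was -0.04 log2 (95% interval -0.81 to 0.73, limma adjusted p = 0.979). A second, dim probe for Uchl3 was at the floor on 2 arrays and read up to 1.98 in free Ub intestines and up to 2.87 in PBS intestines. Among the remaining genes of this class, Bap1, the chromatin-bound deubiquitinase of histone H2A, differed by 0.08 log2, and Uchl4 by -0.68 on a dim probe. Neither passed the test, and both had overlapping groups.

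Otub1 had the highest positive difference of the 8 genes. It read 7.01, 6.73 and 6.61 log2 in free Ub intestines and 5.86, 6.95 and 6.57 in PBS intestines. PBS replicate 1 was the low value, and the other 5 arrays lay between 6.57 and 7.01. The means were 6.78 ± 0.20 with free Ub and 6.46 ± 0.55 with PBS (SD, n = 3 each), a difference of 0.32 log2 (95% interval -0.53 to 1.17, limma adjusted p = 0.875). Without PBS replicate 1 it was 0.022 log2.

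Otub1 binds ubiquitin-conjugating enzymes and the ligase Rnf128, and all 9 listed partners had a probe. With free Ub 6 averaged higher and 3 lower, the median difference was 0.11 log2, and 0 passed an unadjusted or adjusted p under 0.05. Rnf128, a transmembrane ubiquitin ligase, gave 5.78, 5.41 and 6.20 log2 in free Ub intestines and 3.15, 5.32 and 5.15 in PBS intestines. The lowest value was again PBS replicate 1, and the groups did not overlap. The difference was 1.26 log2 with an interval of -0.57 to 3.08 (limma adjusted p = 0.872), and without PBS replicate 1 it was 0.56. Ube2n, a conjugating enzyme for signaling chains, differed by 0.11 log2, Ube2d3, a conjugating enzyme with many partner ligases, by 0.12, and its relative Ube2d1 by -0.75. All 3 had overlapping groups.

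Cyld removes signaling chains from signaling proteins of the NF-κB pathway. Its brightest probe gave 8.81, 8.99 and 9.07 log2 in free Ub intestines and 9.06, 9.16 and 8.80 in PBS intestines. The 6 values spanned 0.36 log2 with the groups interleaved. The free Ub to PBS ratio was 0.965, with a 95% interval of 0.764 to 1.22 (difference -0.05 log2, limma adjusted p = 0.979). A second probe read 6.98, 7.05 and 7.00 in free Ub intestines and 7.08, 7.30 and 6.83 in PBS intestines, a difference of -0.06. The 2 probes had an r of 0.83 over the 6 arrays, given as a description. Probe 3 was at the floor on 4 arrays and reached 2.58 in PBS replicate 1, and probe 4 was at the floor on all 6.

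**Figure D3:**
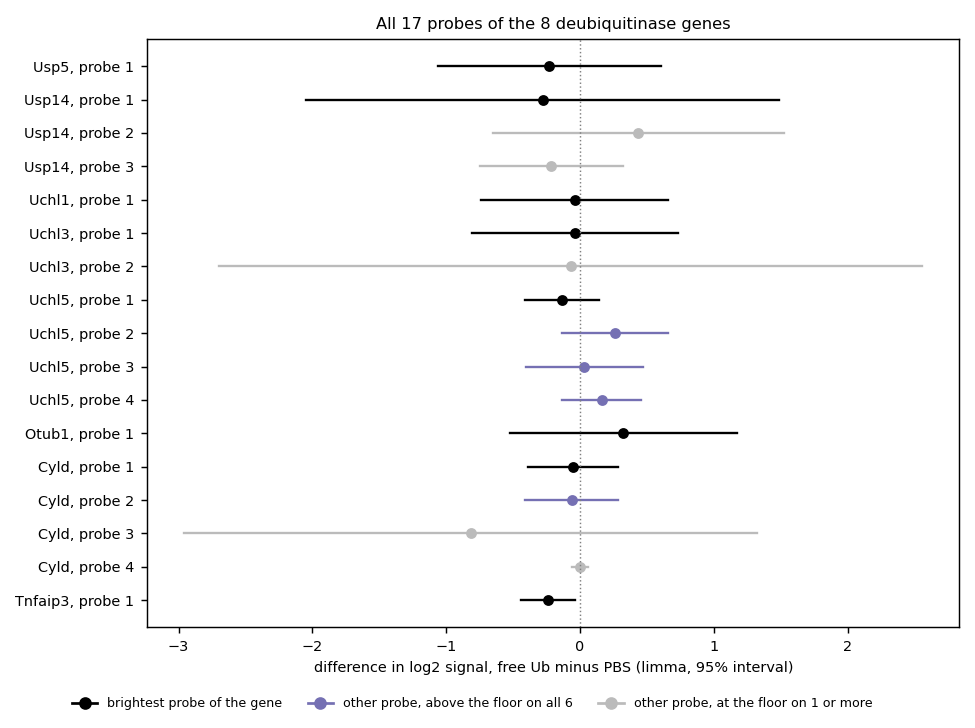
Difference in log2 signal, free Ub minus PBS, with its 95% limma interval, for all 17 probes; black marks the brightest probe of a gene, violet other probes above the floor on all 6 arrays, and grey probes at the floor on at least 1 array, whose intervals describe values near the floor. Of the black intervals only that of Tnfaip3 (-0.44 to -0.04) leaves out 0.

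Tnfaip3 encodes A20, which edits ubiquitin chains and is induced by NF-κB as a brake on it. It had 1 probe, which read 5.96, 5.89 and 5.86 log2 in free Ub intestines and 6.06, 6.28 and 6.08 in PBS intestines. Every free Ub value was below every PBS value, and the nearest pair was 0.097 log2 apart. The means were 5.90 ± 0.05 with free Ub and 6.14 ± 0.12 with PBS (SD, n = 3 each). The difference of -0.24 log2 (95% interval -0.44 to -0.04) corresponds to a free Ub to PBS ratio of 0.848 (0.738 to 0.975). Its unadjusted p was 0.0294 and its limma adjusted p 0.861, and the exact permutation p was 0.1, the smallest possible.

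The sign held under all 18 alternative settings, with differences of -0.28 to -0.14 log2, but most of them could not turn it. Every free Ub value was below every PBS value and the gene had 1 probe. Other tests, probe filters, floors, array weights or leaving out a mouse therefore had to keep the sign. Only quantile normalization and median centring, which change the scale of the arrays, could have turned it. The groups stayed apart after both. The unadjusted limma p was under 0.05 in 8 of the 18. When only probes above the floor on all 6 arrays were fitted, it was 0.167 with an interval of -0.61 to 0.13. Summed marker signals of T and NK cells and of endothelium did not overlap between the groups of the same arrays, although no single marker passed an adjusted p under 0.05. The sums of the other listed cell types overlapped between the groups. The summed linear signal of 13 T and NK cell markers was 2347 to 2751 in free Ub intestines and 3063 to 3115 in PBS intestines, with 10 of 13 averaging lower and Cd8a and Gzmb at the floor on at least 1 array. Much of this sum was Cd8b1, at 10.4, 10.6 and 10.2 log2 with free Ub and 10.7, 10.7 and 10.6 with PBS. Its dimmer probes 2 and 3 gave differences of -0.24 and -0.01, with overlapping groups. The sum of 10 endothelial markers was 814 to 1001 in free Ub intestines and 1013 to 1297 in PBS intestines, with 7 of 10 averaging lower and none at the floor. The markers with the smallest p were Prf1, the pore protein of killer cells (-0.64 log2, limma adjusted p = 0.763), and Eng, a TGF-β coreceptor of endothelium (-0.56, adjusted p = 0.726). A second, dim Prf1 probe gave 1.10, and the mean of both gave 0.23. Other markers averaged higher, among them Cd8a (0.97) and Cd4 (0.18) of T cells and Cldn5 (1.33) and Tek (0.34) of endothelium. Averages were also lower for 7 of 7 pancreatic acinar, 8 of 12 enteroendocrine and 10 of 18 enteric neuron markers. They were higher for 7 of 8 smooth muscle, 7 of 12 epithelial, 7 of 12 macrophage and myeloid and 4 of 6 B cell markers. The part of these cells in the Tnfaip3 value was not tested.

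Partners and substrates of Cyld and A20 were counted next. Of 22 listed genes 19 had a probe, 8 averaged higher and 11 lower, the median difference was -0.004 log2, and 0 passed an unadjusted or adjusted p under 0.05. Otulin, which cuts only head-to-tail chains, read 8.47, 8.59 and 8.63 log2 in free Ub intestines and 8.70, 8.72 and 8.67 in PBS intestines. Its groups did not overlap, but the difference of -0.13 log2 had an interval of -0.27 to 0.01 (limma adjusted p = 0.872). Traf2, a ligase adaptor of tumor necrosis factor receptors, read 4.47, 4.48 and 4.51 in free Ub intestines and 4.78, 5.20 and 4.63 in PBS intestines, also with no overlap (difference -0.38, limma adjusted p = 0.872). Tnip1, an A20-binding protein, read 9.52, 9.62 and 9.24 in free Ub intestines and 9.32, 9.53 and 9.38 in PBS intestines. Its groups overlapped, with a difference of 0.05 log2. Map3k7, the kinase TAK1, differed by 0.85 log2 and Bcl3, a nuclear NF-κB cofactor, by -0.45, both with overlapping groups. The Map3k7 probe was dim, and a second dim probe of that gene gave 0.17.

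NF-κB target genes other than Tnfaip3 were counted in the same way. Of 26 listed genes 24 had a probe, 12 averaged higher and 12 lower, and the median difference was -0.01 log2. For the 17 above the floor on all 6 arrays the counts were 6 higher and 11 lower, with a median of -0.10, and 6 of the 7 genes at the floor on at least 1 array averaged higher. At an unadjusted p under 0.05, 1 gene was higher and 0 were lower, and 0 passed after adjustment. That gene was Nfkbia, which encodes IκBα, the inhibitor that holds NF-κB in the cytoplasm. It read 8.87, 9.06 and 8.92 log2 in free Ub intestines and 8.55, 8.66 and 8.68 in PBS intestines. The groups did not overlap, and the difference was 0.32 log2 (95% interval 0.13 to 0.50, limma adjusted p = 0.582), opposite in sign to Tnfaip3. The second Nfkbia probe, which was dimmer, gave a difference of 0.02 log2. Traf1, a signaling adaptor, differed by -0.57 log2 and Gadd45b, a stress-inducible growth-arrest gene, by -0.42, both with overlapping groups.

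**Figure D4:**
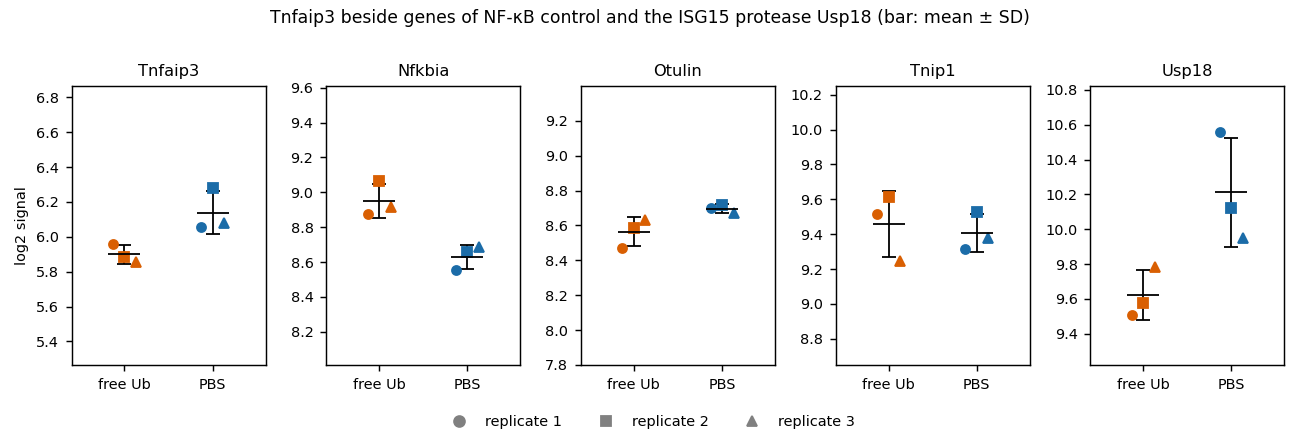
Log2 signal of Tnfaip3, Nfkbia, Otulin, Tnip1 and Usp18 by intestine, free Ub on the left of each panel, with mean and SD (n = 3 each) and a separate scale per panel. Free Ub values lie below PBS values in Tnfaip3, Otulin and Usp18, above them in Nfkbia, and overlap them in Tnip1; no gene passed an adjusted p under 0.05.

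The wider deubiquitinase family was counted in the same way. Of 74 other listed deubiquitinase genes 69 had a probe, and 59 were above the floor on all 6 arrays. With free Ub 27 averaged higher, 41 lower and 1 was at the floor on all 6, with a median difference of -0.06 log2. For the 59 above the floor the median was -0.04, against -0.09 for the 8 genes, which were all above it. By limma 0 of the 69 passed after adjustment, and at an unadjusted p under 0.05 there were 1 higher and 3 lower. Over all named genes 2.34% were higher and 3.4% lower at that p. Among the 59 genes 3 had free Ub values wholly above PBS values and 6 wholly below. Over all genes above the floor on all 6 arrays the shares were 4.45% above and 6.27% below. By class, 15 of 42 measured USP genes averaged higher and 26 lower (median -0.06), 5 of 10 OTU genes higher and 5 lower (median -0.04), and 6 of 15 JAMM, Josephin and MINDY genes higher and 9 lower (median -0.09).

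Of the 4 genes at an unadjusted p under 0.05, 2 belong to the USP class, and the others are Otub2 and Atxn3. Usp18, an interferon-induced protease that removes ISG15 rather than ubiquitin, read 9.51, 9.58 and 9.78 log2 in free Ub intestines and 10.56, 10.12 and 9.95 in PBS intestines (difference -0.59, limma adjusted p = 0.862). Its second probe gave -0.28. Usp38 read 5.20, 5.02 and 5.51 in free Ub intestines and 6.20, 5.70 and 5.81 in PBS intestines (difference -0.66, limma adjusted p = 0.819), and its 2 dimmer probes gave -0.01 and -0.24.

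Otub2, the closest relative of Otub1, read 3.48, 3.58 and 2.73 log2 in free Ub intestines and 4.36, 4.00 and 3.82 in PBS intestines (difference -0.80, limma adjusted p = 0.872), and its 2 dimmer probes, both at the floor on at least 1 array, gave 0.45 and -0.68. Atxn3, the Josephin enzyme known from spinocerebellar ataxia, read 5.09, 5.69 and 5.68 in free Ub intestines and 4.39, 4.79 and 4.93 in PBS intestines (difference 0.78, limma adjusted p = 0.849), and its 2 dimmer probes gave 0.68 and 0.86. In all 4 genes the brightest probe had groups that did not overlap. Usp21, a histone deubiquitinase in its known nuclear role, differed by -0.45 log2 and Cops5, the deneddylase of the COP9 signalosome, by 0.21. Both had groups apart without passing an unadjusted p under 0.05.

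**Figure D5:**
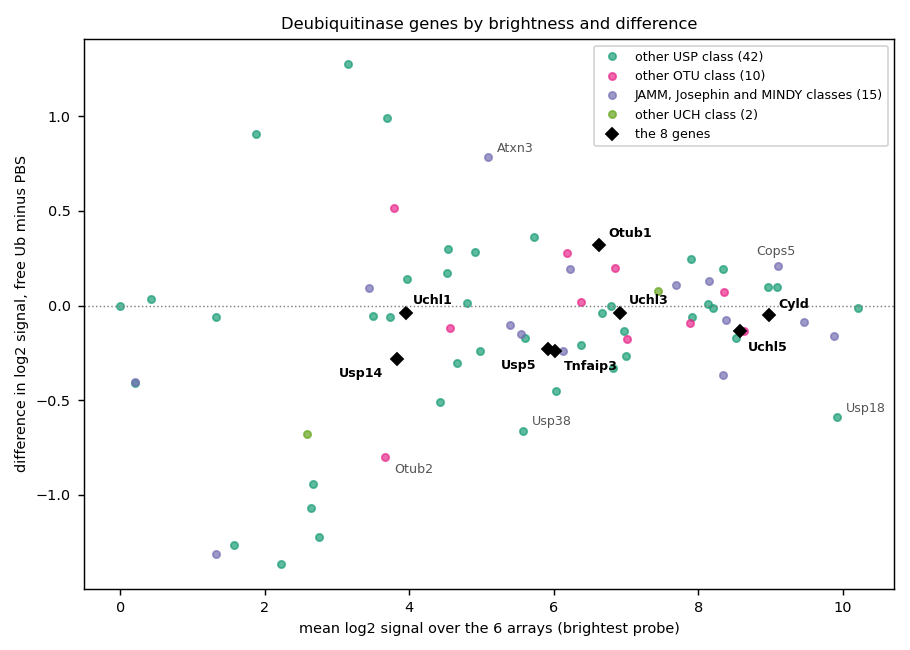
Difference in log2 signal, free Ub minus PBS, against the mean log2 signal over the 6 arrays, for the 8 genes (black diamonds) and 69 other deubiquitinase genes colored by class, each by its brightest probe. Differences spread more widely among dim genes, and the 8 genes lie between -0.28 and 0.32.

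The 8 genes did not order the mice alike. Over the 6 arrays the 28 pairwise Pearson correlations ran from -0.67, between Usp14 and Otub1, to 0.73, between Usp5 and Uchl1. All pairs share the same 6 arrays and their normalization, so these values are descriptions. The genes most like each one were taken by Pearson r over the 6 arrays from up to 5580 genes above 6 log2 on every array. They were R3hdm4 (0.998) and Lad1 (0.995) for Usp5, Mff (0.991) and Hsd17b10 (0.963) for Usp14, and Slc51b (0.995) and Zfp703 (0.984) for Uchl1. For Uchl3 they were Tcf21 (0.972) and Nubp1 (0.968), for Uchl5 Ccdc86 (0.962) and Orc6 (0.954), and for Otub1 Osbpl3 (0.991) and Brwd1 (0.982). Cyld was closest to Med24 (0.995) and Wbp1l (0.991), and Tnfaip3 to Rplp2 (0.995) and Vps18 (0.981). With 6 arrays such values are common, since each of the 8 genes had between 21 and 135 genes with an r above 0.9.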

How the data were processed

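The deposited table holds normalized log2 values of 45281 probes for 6 intestines. The authors processed the Illumina arrays in GenomeStudio (version not given in the sources used here) with cubic-spline normalization; the log scale is not stated anywhere, and base 2 was inferred from the highest value, 14.5. No detection p-values were used, and the number of arrays limits precision. Probes were named from the platform annotation: 34885 had 1 symbol, 18 several and 10378 none listed, and only the first kind was named. Every probe entered a single fit by limma 3.58.1 in R 4.3.3 (free Ub minus PBS, no covariate, two-sided, Benjamini-Hochberg over all probes). Exact permutation tests used scipy 1.17.1. Linear sums are sums of 2 to the power of the log2 value. Pairwise correlations of the 6 arrays were 0.949 to 0.968 over 21349 probes above the floor. The method was checked on simulated data.

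Named genes were the 8 genes, the measured UCH genes, up to 4 genes of smallest p per list among those above the floor on all 6 arrays, genes named beforehand as close relatives or partners, and the 2 genes most like each one. Some marker genes under this rule are given only within their lists, and Nfkbia was both a listed target and named as a partner. The members and lists were chosen with earlier results of these data known. Alternatives were median centring, quantile normalization, a floor of 4 or 6 log2, brighter probes only, a replicate block, the methods' Student's t-tests, array weights, robust variances with an intensity trend, the mean of a gene's probes, each mouse left out and, added after seeing the data, only probes above the floor on all 6 arrays.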

Additional observations from a re-analysis of the deposited data

How the results depend on the processing

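No gene of the 8 passed an adjusted p under 0.05 under any alternative, and 130 of 142 of their differences kept their sign. Many of the 142 could not turn. The t-tests, the replicate block, robust variances with an intensity trend and the probe filters use the same group means. For a gene with 1 probe, the mean of its probes does so too. Leaving out 1 mouse at a time gave -0.40 to 0.085 log2 for Usp5, -0.69 to 0.21 for Usp14, -0.21 to 0.16 for Uchl1, -0.21 to 0.18 for Uchl3, -0.16 to 0.026 for Cyld, -0.19 to -0.056 for Uchl5, 0.022 to 0.56 for Otub1 and -0.28 to -0.17 for Tnfaip3. The sign turned for Usp5 without free Ub 3, Usp14 without PBS 1 or free Ub 2, Uchl1 without PBS 2, PBS 3 or free Ub 3, Uchl3 without PBS 3 or free Ub 2, and Cyld without PBS 2 or free Ub 1. The mean of the probes gave 0.080 for Uchl5, and array weights gave 0.059 for Cyld. The cause was not tested.

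The probe count at an adjusted p under 0.05 was 24. It was 0 with floors of 4 or 6, with probes above the median mean, with an intensity trend, and when every array had to be above the floor. The unpaired t-test gave 11, array weights 59, and leaving out a mouse 75 to 112. The 4 other deubiquitinases at an unadjusted p under 0.05 became 2 with a floor of 6, and 2 to 6 with a mouse left out. With the replicate block, limma and the paired t-test called 0 probes, limma gave 9 of these genes, and the unadjusted p of Tnfaip3 was 0.0781. Same-numbered mice did not deviate together (correlations -0.003, 0.02 and -0.09), and 1 of 6 samples was closest to its own number, so the numbers were not taken as pairs.

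Among other genes, leaving out a mouse gave -1.47 to 0.071 for Usp13, -0.027 to 0.16 for Tnip1, -0.0053 to 0.24 for Bap1 (-0.0022 without free Ub 2) and -0.27 to 0.013 for Ubqln1. The mean of a gene's probes gave 0.056 for Robo4, -0.0036 for Cops5, 0.74 for Ruvbl1, 0.050 for Rad23b, -0.23 for Psmd1, 0.42 for Ubqln1 and 0.23 for Prf1, and array weights 0.042 for Ubqln1. The means for Robo4, Ruvbl1 and Prf1 include probes at the floor on at least 1 array. All other differences of named genes kept their sign.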

Other observations

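Probes of 1 gene disagreed for the proteasome subunit Psmd1. Its brightest and second probes gave differences of 0.08 and -0.04 log2. Probe 3, chosen for mention after its values were seen, read 6.39, 6.64 and 6.53 log2 in free Ub intestines and 7.46, 7.12 and 7.14 in PBS intestines (difference -0.72, limma unadjusted p = 0.00324, adjusted p = 0.459), with groups that did not overlap. All 3 were designed on the same RefSeq transcript.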
